A study of Mus musculus with 12 samples.

Results

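The liver makes glucose during a fast. In control livers and in livers labelled as lacking an enzyme of fatty acid oxidation, 9 genes of that process and of the opposing breakdown of glucose were followed. They are Pck1, G6pc, Fbp1, Pcx, Pklr, Pfkfb1, Pfkfb3, Slc37a4 and Slc2a2, chosen by name for their roles and found by symbol as 9 of the 56748 genes in the deposited count table, and all 9 had enough counts to be tested. RNA-seq was carried out on mouse livers after a 24 h fast, namely those of 4 controls floxed for Cpt1a, Cpt1b and Cpt2 (WT), 4 livers labelled as a liver-specific Cpt2 KO (SKO) and 4 labelled as a liver-specific Atf3 and Cpt2 double KO (DKO). Cpt2 encodes carnitine palmitoyltransferase 2, which lets long-chain fatty acids enter mitochondrial oxidation, and Atf3 encodes a transcription factor induced by cell stress. The study deleted floxed alleles with a Cre driven by the albumin promoter, which acts in hepatocytes, and liver cells in which it is not active keep both genes. The labels give no Cre or Atf3 allele for the controls and no sex or age. The comparisons ask how the loss of Cpt2 changes these genes in the fasted liver and what the added loss of Atf3 changes. In RNA from whole liver, fewer cells of a type and less RNA per cell cannot be told apart.

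Gluconeogenesis builds glucose from lactate, amino acids and glycerol. Pcx (pyruvate carboxylase) turns pyruvate into oxaloacetate, Pck1 (cytosolic phosphoenolpyruvate carboxykinase) turns oxaloacetate into phosphoenolpyruvate, and Fbp1 (fructose-1,6-bisphosphatase) and G6pc (the catalytic subunit of glucose-6-phosphatase) carry out the final irreversible steps. Slc37a4 brings glucose-6-phosphate into the endoplasmic reticulum, where G6pc acts, and Slc2a2 (the glucose transporter Glut2) carries glucose across the hepatocyte membrane. Pklr, the liver pyruvate kinase, runs the last step of glycolysis in the opposite direction, and Pfkfb1 and Pfkfb3 make and, in the case of Pfkfb1, also remove fructose-2,6-bisphosphate, which activates glycolysis and inhibits Fbp1. The oxidation of fatty acids gives the fasting liver the ATP and the acetyl-CoA, an activator of pyruvate carboxylase, on which gluconeogenesis runs.

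In the livers labelled SKO, 7 of the 9 genes were expressed below WT, with Slc2a2 3.54-fold, Fbp1 3.20-fold and Pfkfb3 3.13-fold lower and Pck1 1.88-fold lower. Pfkfb3 overlapped WT, and its call was lost when WT replicate 3 or 4 or SKO replicate 2 or 4 was left out. Among all genes tested 15.4% fell and 32.1% changed in either direction. Pcx and Pklr did not pass the test. In DKO the same 7 genes had lower means than in WT. With all 4 livers only Slc37a4 passed the main edgeR test (those 2 genotypes alone, filter on low counts, no replicate block), where 4.39% of all genes fell and 10.5% were called. Without that filter edgeR called 6 of the 9 and 5.88% of all genes, and DESeq2 called 6 of the 9 and 14.4%. DKO replicate 4, which had Xist counts and no Y-linked counts, lay close to WT for most of the 7. That liver was known from earlier results of these data to stand apart. Without it the 7 genes that fell in SKO also fell in DKO, where 17.5% of all genes fell and 35.9% changed. Leaving out any other liver of these groups left 1 of the 9 called. No gene of the 9 differed between DKO and SKO after adjustment, with or without DKO replicate 4.

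The genes differ in their promoters as well as in their roles. Stretches of RefSeq promoter sequence (build GRCm38.p6) are shown because Pck1, G6pc and Pklr, control points of glucose production and of glycolysis in the liver, each hold a match found in no other of the 9 genes. A window of 250 bases before and 50 after each RefSeq start was searched on both strands, 17 windows for the 9 genes, and only parts with no exon in the GENCODE annotation (GRCm38), or 30 bases about the match where an exon covers it, are printed. The capitals mark the match.
Pck1, chr2:173152823-173153047, plus strand: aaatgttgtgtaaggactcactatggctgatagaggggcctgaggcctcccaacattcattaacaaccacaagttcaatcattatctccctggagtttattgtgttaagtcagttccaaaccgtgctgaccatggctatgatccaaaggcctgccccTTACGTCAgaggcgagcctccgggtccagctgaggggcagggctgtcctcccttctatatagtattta
G6pc, chr11:101367567-101367596, plus strand: cctgaacatgtTTGCATCAacctactgatg
Pklr, chr3:89136373-89136571, plus strand: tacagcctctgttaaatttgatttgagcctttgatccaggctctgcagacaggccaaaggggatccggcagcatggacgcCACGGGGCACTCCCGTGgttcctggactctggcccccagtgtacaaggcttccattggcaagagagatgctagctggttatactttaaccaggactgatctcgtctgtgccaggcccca

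In Pck1 the capitals are TTACGTCA, a form of the cAMP response element, from 93 to 86 bases before the RefSeq start and outside annotated genes, and 0.499% of the 32851 promoter windows searched hold these letters on either strand. In G6pc they are TTGCATCA, which reads TGATGCAA on the other strand, the letters of the C/EBP-ATF response element to which Atf4 and C/EBP proteins bind, and 0.895% of windows hold it. It lies from 138 to 131 bases before the RefSeq start of G6pc, within a longer first exon that GENCODE gives the gene. The Pklr match is a carbohydrate response element, the paired E-box-like site at which ChREBP, a glucose-responsive transcription factor, binds, and 1.02% of windows hold one. It lies from 170 to 154 bases before the second of the Pklr starts, in the first intron of the transcript that begins further upstream. The E-box CACGTG, which overlaps none of the other matches, was found in a window of Pcx and in a window of Pfkfb3, and in 7.15% of all windows. The cAMP response element TGACGTCA, held by 1.79% of windows, and TGTTTAC, 1 form of the site that forkhead factors bind, held by 3.65%, were in none of the 17 windows. Other forms of the forkhead site were not searched, so their absence cannot be read from this. A match is a run of letters and no binding was measured here.

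Library depth was 14710304 to 20030055 counts per liver, and a gene with 0 counts could have had up to 0.15 to 0.204 CPM (counts scaled to library size) by the limit of 3 counts, which covers counting error only. The least expressed member, Pfkfb3, had 83 to 850 counts per liver. The level of Cpt2 was 235 ± 25.0 CPM (SD, n = 4) in the controls, 126 ± 22.4 CPM in SKO and 118 ± 11.3 CPM in DKO livers, with no overlap between WT and either KO. Atf3 was at 1.11 to 2.16 CPM in WT and at 14.5 to 53.5 CPM in SKO. In DKO replicates 1 to 4 it was at 7.93, 10.8, 13.7 and 0.271 CPM, so on this scale 3 of the 4 livers labelled DKO lay above every WT liver and below every SKO liver, and the table cannot separate reads on the deleted part of a gene from reads on the rest. DKO therefore stands for the livers labelled DKO throughout. SKO replicate 3 and DKO replicate 4 had 18063 and 20855 counts on Xist and at most 2 on 4 Y-linked genes, while the other 10 livers had 2741 to 4294 Y-linked counts and at most 19 on Xist. The study describes the sequenced animals as males. Values without these livers are given for the tests of the 9 genes and for the counts over gene lists, and shares and ratios are given by liver or by range.

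Markers of hepatocytes, 8 genes summed, were at 81026 to 100538 CPM in WT. They were at 46127 to 77755 CPM in SKO and at 48707 to 103916 CPM in DKO, where the highest value was that of DKO replicate 4. With all livers 4 of the 8 fell in SKO and 1 in DKO, beside 15.4% and 4.39% of all genes. Those of macrophages summed to 224 to 455 CPM in WT livers, and SKO livers had 207 to 506 CPM and DKO livers 129 to 456 CPM, with SKO replicate 3 and DKO replicate 4 the highest of their genotypes. Summed endothelial markers stood at 153 to 333 CPM in WT and within that range in both KOs, and stellate cell markers at 166 to 195 CPM in WT and 206 to 313 CPM in the KO livers. Cholangiocyte markers reached 6.40 to 12.1 CPM in WT and at most 4.48 CPM in the KO livers. Neutrophil and lymphocyte markers stayed at or under 4.79 CPM in every liver, with Ly6g at 0 in some, and erythroid markers ranged from 109 to 668 CPM. Of the macrophage markers Cd68 rose in SKO (log2 2.28, edgeR adjusted p = 1.1e-04) and Marco fell in DKO (log2 −1.95, edgeR adjusted p = 0.0288). The stellate marker Dcn rose in SKO, and the cholangiocyte marker Sox9 fell in both KOs. Of the erythroid markers Hba-a1 and Hbb-bs rose in SKO, and Alas2 fell in both KOs. The part of these marker levels in the results below was not tested.

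The steps toward glucose are described first. Pck1 (ENSMUSG00000027513, chromosome 2 from 173153048 to 173159273 in GRCm38), the enzyme that commits oxaloacetate to gluconeogenesis, stood at 5678, 7104, 7714 and 6275 CPM in WT replicates 1 to 4. SKO replicates 1 to 4 had 4592, 3225, 4191 and 2035 CPM, all below the lowest WT liver. DKO replicates 1 to 3 had 3626, 4110 and 2812 CPM, also below WT, and replicate 4 had 6442 CPM, inside the WT range. Pck1 fell by 0.91 on the log2 scale in SKO (SE 0.23, edgeR adjusted p = 0.0111), and its log2 fold change in DKO against WT was −0.64 (SE 0.26, edgeR adjusted p = 0.138).

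G6pc (ENSMUSG00000078650, chromosome 11 from 101367561 to 101377903), which releases free glucose, varied widely among the SKO livers. Its levels in WT were 548, 685, 403 and 527 CPM, and those in SKO were 110, 232, 309 and 108 CPM, so that even the highest SKO liver, replicate 3, lay below every WT liver. DKO livers had 353, 204, 169 and 411 CPM, with replicate 4 just above the lowest WT liver. Against WT, G6pc fell by 1.496 in SKO (log2, SE 0.32, edgeR adjusted p = 0.00414), and the log2 fold change in DKO was −0.91 (SE 0.29, edgeR adjusted p = 0.0743). Slc37a4 (ENSMUSG00000032114, chromosome 9 from 44396852 to 44402968), the transporter that supplies G6pc with its substrate, passed the edgeR test in both KO genotypes with all livers. It was the only member to do so in the main fits, on each pair of genotypes with the filter on low counts and no replicate block. WT livers had 299, 355, 359 and 374 CPM. SKO livers had 147, 165, 182 and 132 CPM and DKO livers 178, 143, 132 and 206 CPM, none of them in the WT range. It fell by 1.13 in SKO (log2, SE 0.14, edgeR adjusted p = 9.9e-05) and fell by 1.06 in DKO (log2, SE 0.17, edgeR adjusted p = 0.00982).

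Fbp1 (ENSMUSG00000069805, chromosome 13 from 62864753 to 62888282), which removes a phosphate from fructose-1,6-bisphosphate, was among the tightest of the 9 genes in WT, at 1172, 1320, 1221 and 1212 CPM. In SKO it was at 455, 403, 408 and 258 CPM, under the lowest WT value by a wide margin in every liver. DKO replicates 1 to 3 were at 343, 408 and 367 CPM, in the same range as SKO, and replicate 4 was at 1036 CPM. Fbp1 fell by 1.68 in SKO (log2, SE 0.18, edgeR adjusted p = 4.0e-05), and in DKO its log2 fold change of −1.18 (SE 0.34) missed the threshold (edgeR adjusted p = 0.0555) although no DKO liver reached the WT range. Pcx (ENSMUSG00000024892, chromosome 19 from 4510472 to 4621752), the mitochondrial entry step, did not pass the edgeR test in either KO genotype with all livers. Its WT levels were 825, 1153, 953 and 1097 CPM, its SKO levels 791, 760, 1043 and 572 CPM and its DKO levels 812, 877, 680 and 651 CPM, with overlap between all 3 genotypes. Its log2 fold change was −0.33 in SKO (95% confidence interval −0.74 to 0.07, edgeR adjusted p = 0.2) and −0.40 in DKO (−0.77 to −0.04, edgeR adjusted p = 0.136). DKO replicate 4, high for most members, was the lowest DKO liver for Pcx.

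Slc2a2 (ENSMUSG00000027690, chromosome 3 from 28697903 to 28731359), the high-capacity glucose transporter of hepatocytes, had the largest fall of the 9 genes in SKO with all livers, while without SKO replicate 3 that of Pfkfb3 was larger. It was at 428, 440, 401 and 488 CPM in WT and at 133, 97.0, 157 and 105 CPM in SKO. In DKO it was at 84.6, 113 and 130 CPM in replicates 1 to 3 and at 365 CPM in replicate 4, below the lowest WT liver but far above the next DKO liver. The log2 fold change was −1.83 in SKO (SE 0.16, edgeR adjusted p = 1.6e-05) and −1.33 in DKO (SE 0.41, edgeR adjusted p = 0.0644).

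**Figure D1:**
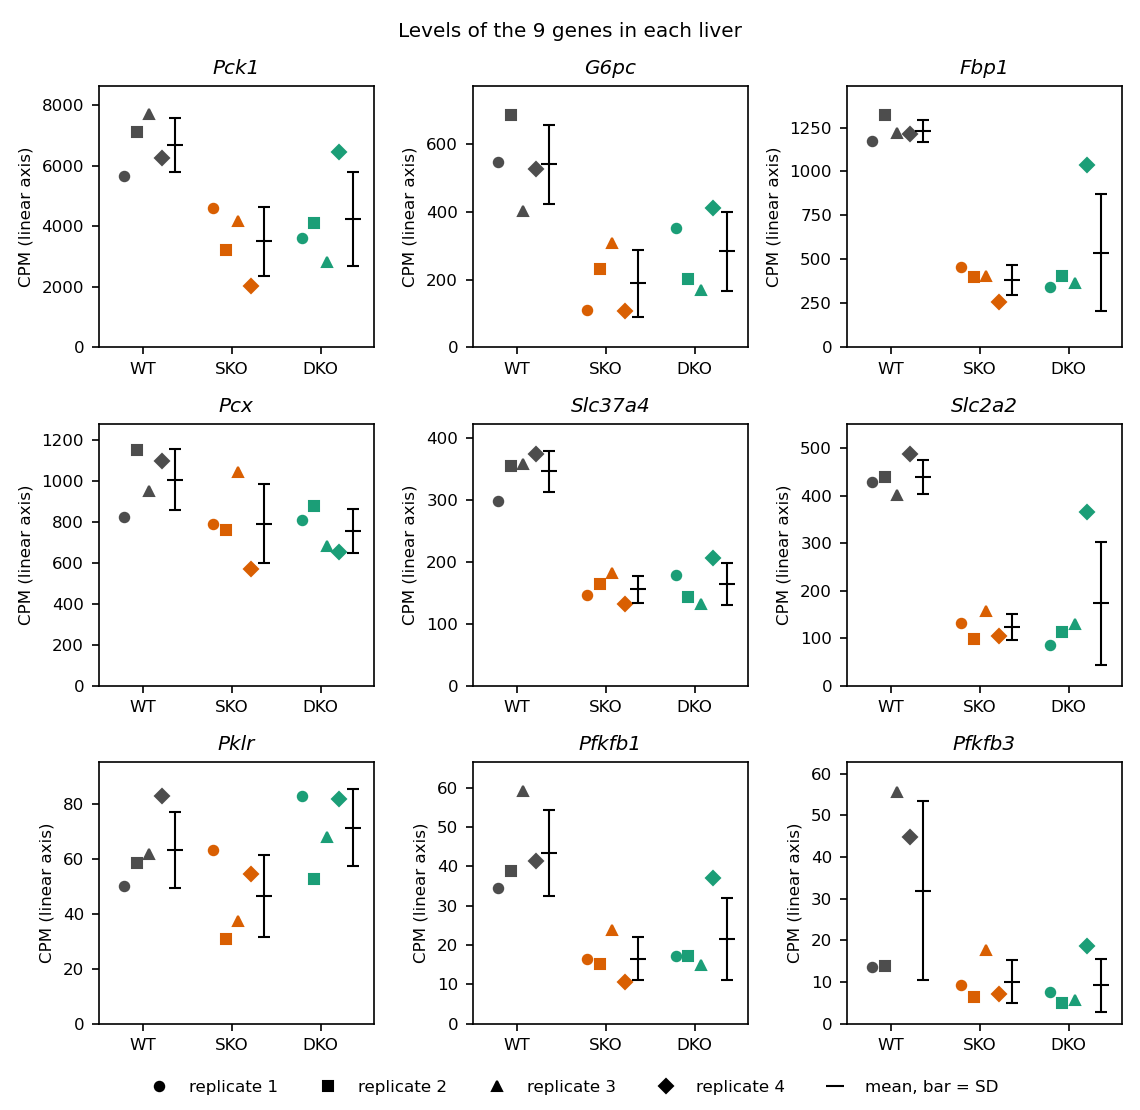
Level of each of the 9 genes in CPM (linear axes from 0) in the 12 livers, with a symbol for each replicate number and the mean ± SD of the 4 livers beside each genotype. The SKO livers lie below every WT liver for 6 genes, and DKO replicate 4 (green diamond) stands above the other DKO livers for 7.

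The genes on the glycolytic side did not form a block. Pklr (ENSMUSG00000041237, chromosome 3 from 89136142 to 89146784) had 50.1, 58.4, 61.8 and 82.8 CPM in WT livers. SKO livers had 63.2, 31.0, 37.4 and 54.3 CPM, and DKO livers had 82.7, 52.8, 67.8 and 81.9 CPM. All 3 genotypes overlapped, and Pklr was the only member whose mean in DKO was above WT. Its log2 fold change was −0.43 in SKO (95% confidence interval −0.92 to 0.06, edgeR adjusted p = 0.168) and 0.19 in DKO (−0.24 to 0.61, edgeR adjusted p = 0.552).

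Pfkfb1 (ENSMUSG00000025271, chromosome X from 150588229 to 150643878), the liver form of the bifunctional enzyme that makes and breaks fructose-2,6-bisphosphate, was at 34.4, 38.8, 59.2 and 41.3 CPM in WT. SKO livers had 16.5, 15.1, 23.7 and 10.7 CPM, all below WT, and DKO livers had 17.2, 17.1, 14.8 and 37.0 CPM, the last inside the WT range. It fell by 1.38 in SKO (log2, SE 0.23, edgeR adjusted p = 9.6e-04), and its log2 fold change in DKO was −0.998 (SE 0.30, edgeR adjusted p = 0.0598). Pfkfb3 (ENSMUSG00000026773, chromosome 2 from 11471433 to 11554077), the inducible form with high kinase activity, split the WT livers into replicates 1 and 2 at 13.6 and 13.8 CPM and replicates 3 and 4 at 55.5 and 44.9 CPM. SKO livers were at 9.17, 6.43, 17.7 and 7.10 CPM and DKO livers at 7.55, 5.04, 5.77 and 18.7 CPM, so the highest liver of each KO genotype exceeded the lower pair of WT livers. Pfkfb3 fell by 1.64 in SKO (log2, SE 0.48, edgeR adjusted p = 0.0208), but this call was lost, at edgeR adjusted p = 0.0625, 0.0568, 0.0664 or 0.0618, when WT replicate 3, WT replicate 4, SKO replicate 2 or SKO replicate 4 was left out. In DKO the log2 fold change was −1.77 (SE 0.57, edgeR adjusted p = 0.0729).

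Between SKO and WT, 7 of the 9 genes fell and none rose at an adjusted p under 0.05 (edgeR, quasi-likelihood test, Benjamini-Hochberg adjustment over 14261 genes). Of all genes tested, 15.4% fell and 16.7% rose, 32.1% in all. For 6 of the 9 (all that fell except Pfkfb3) every SKO liver lay below every WT liver, which was so for 16.6% of all genes. The median log2 fold change of all genes was 0.03. Leaving out SKO replicate 3, which has Xist counts and was the highest SKO liver for G6pc, Pcx, Pfkfb1, Pfkfb3, Slc37a4 and Slc2a2, also brought Pcx past the threshold, with a log2 fold change of −0.49 (edgeR adjusted p = 0.0496), and left 8 of 9 called, all lower, where 15.2% of all genes fell and 32.5% were called in either direction. The log2 fold changes without this liver were −2.06 for Pfkfb3, −1.96 for Slc2a2, −1.83 for G6pc, −1.70 for Fbp1, −1.60 for Pfkfb1, −1.21 for Slc37a4 and −1.003 for Pck1, with edgeR adjusted p at or under 0.00965, and −0.33 for Pklr (edgeR adjusted p = 0.306). No label says that the livers of a group came from separate animals, so p-values measure the spread between these samples.

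Between DKO and WT, 1 of the 9 genes fell, where 4.39% of 14448 genes fell and 6.06% rose, 10.5% in all. The count depended on the fit, as with no liver left out 6 of the 9 (all but Pck1, Pcx and Pklr) were called by DESeq2, 6 by edgeR without the filter on low counts and 5 by edgeR with all 12 livers in one fit. Of all genes these fits called 14.4% (of the 17400 with an adjusted p), 5.88% and 11.6%. For Fbp1, Slc37a4 and Slc2a2 no DKO liver reached the WT range, and 8.89% of all genes lay so. DKO replicate 4 was the highest DKO liver for 7 of the 9 genes and lay within the WT range for Pck1, G6pc, Pklr, Pfkfb1 and Pfkfb3. Over the 9 genes its median difference from the WT mean was −0.26 on the log2 (CPM + 0.5) scale, against −0.95, −1.29 and −1.49 in DKO replicates 1 to 3 and −0.78 to −1.82 in the SKO livers. This liver had the Atf3 count nearest to 0 and the lowest Cpt2 level of all 12 livers, 102 CPM, together with hepatocyte marker levels above those of WT, and the part of any of these in its position was not tested.

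**Figure D2:**
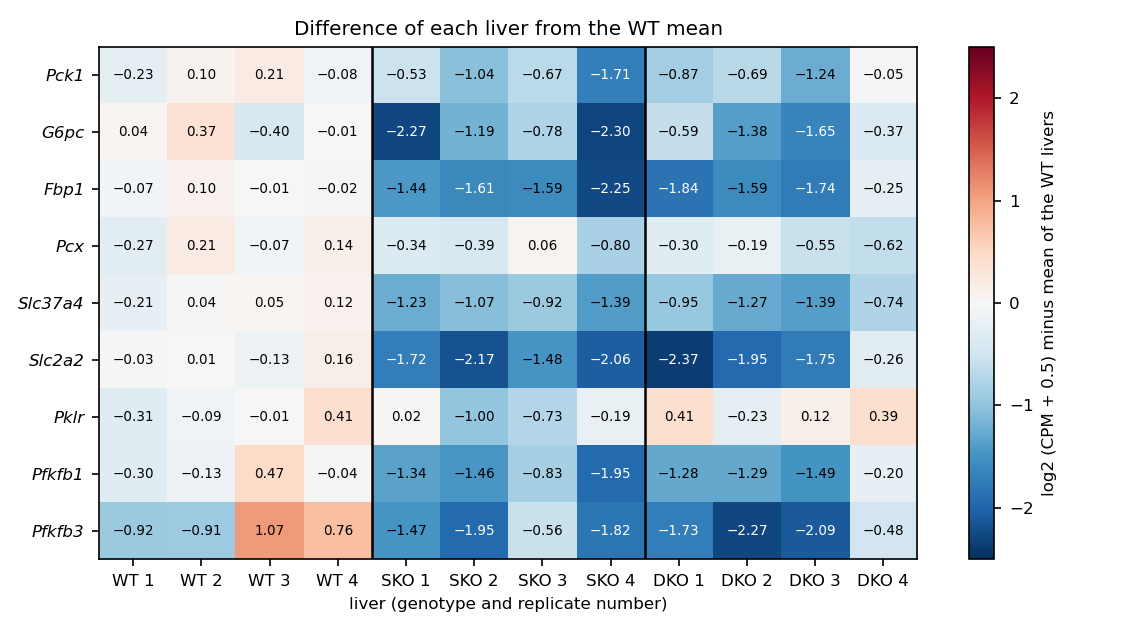
Difference of each liver from the mean of the WT livers on the log2 (CPM + 0.5) scale, with genes in rows and the 12 livers in columns grouped by genotype, blue for lower and red for higher. The columns of SKO and of DKO 1 to 3 are mostly blue, with the palest rows Pcx and Pklr, and DKO 4 lies between −0.74 and 0.39.

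Without DKO replicate 4, 7 of the 9 genes fell in DKO, all but Pcx and Pklr, where 17.5% of 14634 genes fell and 35.9% were called in either direction. For 7 of the 9 the remaining DKO livers all lay below WT, as did 20.6% of all genes. The log2 fold changes were then −2.37 for Pfkfb3, −2.003 for Slc2a2, −1.72 for Fbp1, −1.40 for Pfkfb1, −1.19 for Slc37a4, −1.15 for G6pc and −0.92 for Pck1, with edgeR adjusted p between 1.8e-06 and 0.00474. Pcx was at −0.34 (edgeR adjusted p = 0.0828) and Pklr at 0.11 (edgeR adjusted p = 0.682). The SKO and DKO comparisons share the same 4 WT livers, so a WT value moves both.

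The difference between the KO genotypes was also tested directly. None of the 9 genes passed the test between DKO and SKO, where 3 of 14363 genes did (0.0209%). At an unadjusted p under 0.05, 1 of the 9 and 6.49% of all genes passed. The 1 gene was Pklr, with a log2 difference of 0.62 (95% confidence interval 0.08 to 1.17, edgeR adjusted p = 0.717). For the others the intervals (95%, log2) were wide. They ran from −0.46 to 1.02 for Pck1, from −0.30 to 1.48 for G6pc, from −0.31 to 1.33 for Fbp1 and from −0.42 to 1.44 for Slc2a2. Those of Pcx (−0.54 to 0.40) and Slc37a4 (−0.34 to 0.51) were narrower, and those of Pfkfb1 (−0.34 to 1.13) and Pfkfb3 (−1.14 to 0.91) also held 0. The DKO and SKO ranges overlapped for all 9 genes.

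Leaving out DKO replicate 4 brought the differences of Pck1, Fbp1 and Pfkfb1 from SKO to −0.01, −0.04 and −0.02 and turned their sign and that of Slc2a2 (−0.18) and Slc37a4 (−0.06). The difference of Pklr went from 0.62 to 0.54 (edgeR adjusted p = 0.684) and that of G6pc from 0.59 to 0.34, while Pfkfb3 went from −0.11 to −0.73 (edgeR adjusted p = 0.705). Of all 14589 genes tested without that liver, 0.103% passed after adjustment and 7.22% at an unadjusted p under 0.05. Leaving out SKO replicate 3 moved the difference of G6pc to 0.93 (95% confidence interval 0.05 to 1.81, edgeR adjusted p = 0.803). The other differences were then 0.09 for Pcx, 0.16 for Slc37a4, 0.30 for Pfkfb3, 0.37 for Pck1, 0.53 for Pklr, 0.54 for Fbp1, 0.62 for Pfkfb1 and 0.64 for Slc2a2, and none passed the test.

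**Figure D3:**
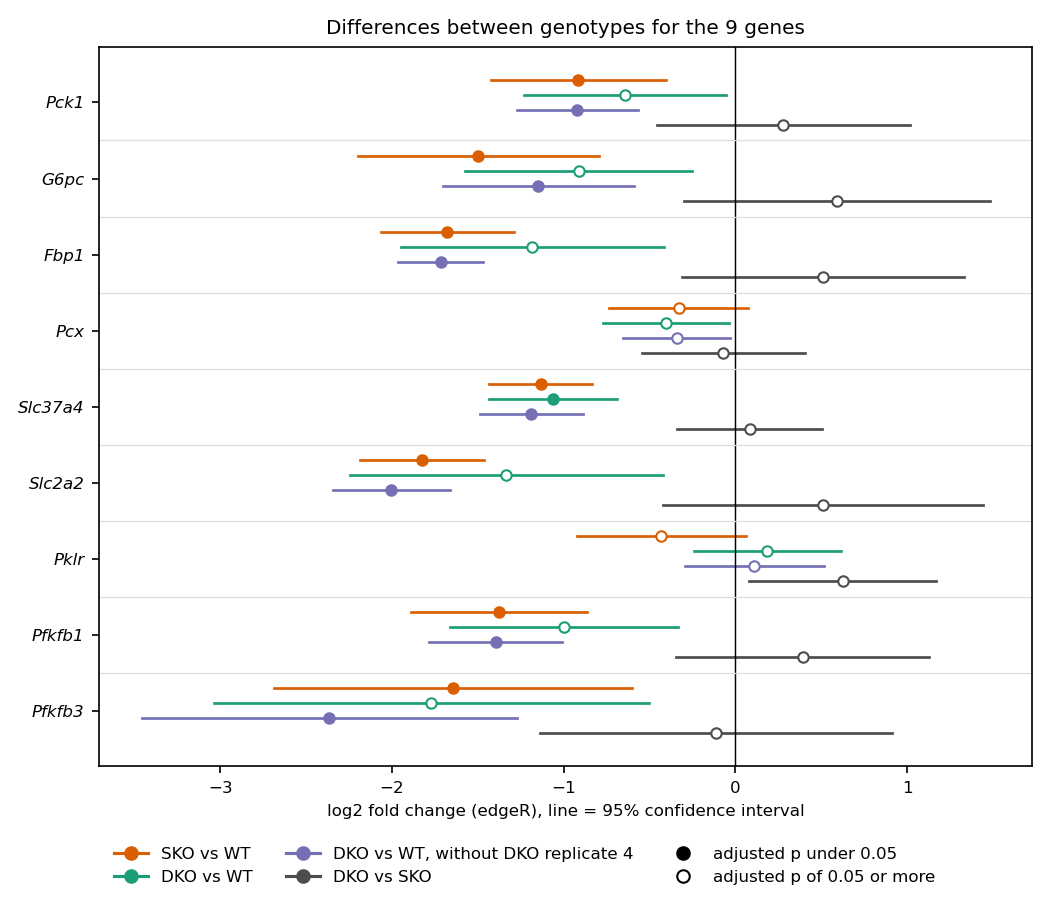
Log2 fold change of each gene (horizontal axis) with its 95% confidence interval for SKO vs WT, DKO vs WT with and without DKO replicate 4, and DKO vs SKO, filled where the edgeR adjusted p was under 0.05. Without DKO replicate 4 the DKO vs WT estimates of 7 genes are filled and lie below 0, and the DKO vs SKO intervals hold 0 for all genes but Pklr.

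Per unit of gene length, in FPKM as deposited, Pck1 was the most abundant of the 9 in each genotype, at 2032 ± 276 FPKM in WT livers, 1065 ± 348 FPKM in SKO livers and 1275 ± 478 FPKM in DKO livers (SD, n = 4). Fbp1 followed in WT at 753 ± 37.1 FPKM. In WT the next levels were those of G6pc (233 ± 49.3) and Pcx (221 ± 32.0), which did not differ beyond their spread, then Slc37a4 (126 ± 12.0) and Slc2a2 (79.4 ± 6.46). Pklr (20.4 ± 4.48), Pfkfb1 (11.3 ± 2.85) and Pfkfb3 (4.40 ± 2.97) came last. In SKO, G6pc was at 81.8 ± 42.6 FPKM and Pcx at 173 ± 42.5, so Pcx stood above G6pc in 4 of 4 livers of that genotype, and Slc2a2, at 22.2 ± 4.89 FPKM, came near Pklr at 14.9 ± 4.74.

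Several of these genes belong to families in which another isozyme serves other tissues, and the share of the liver form in the summed FPKM of its family was taken in each liver as a description with no test. Slc2a2 made up 77.6%, 74.5%, 73.5% and 76.5% of the FPKM of 7 genes of its family in WT replicates 1 to 4. The 7 were Slc2a1, Slc2a2, Slc2a3, Slc2a4, Slc2a8, Slc2a9, which is a urate carrier, and Slc2a10. In SKO its share was 49.8% to 60.7%, and in DKO replicates 1 to 4 it was 47.5%, 55.7%, 59.7% and 73.6%. Every SKO liver lay below WT, and DKO replicate 4 lay in the WT range. The ubiquitous transporter Slc2a1 did not pass the test in SKO (log2 fold change −0.34, edgeR adjusted p = 0.314) and fell by 0.75 in DKO (log2, edgeR adjusted p = 0.0385).

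G6pc accounted for 98.1% to 98.7% of the FPKM of G6pc, G6pc2 and G6pc3 in WT, compared with 89.0% to 96.6% in SKO livers and 92.2% to 98.4% in DKO. G6pc3, the ubiquitous phosphatase, rose in SKO by 0.53 (log2, SE 0.15, edgeR adjusted p = 0.0198). Fbp1 gave 99.87% or more of the FPKM of Fbp1 and Fbp2 in WT and 98.8% to 99.0% in SKO. Fbp2, the muscle form, had 10, 2, 0 and 25 counts in WT replicates 1 to 4, 60, 72, 83 and 46 counts in SKO and 49, 40, 49 and 6 counts in DKO, the lowest in DKO replicate 4. It rose in SKO by 2.78 (log2, SE 0.65, edgeR adjusted p = 0.00666) from a level at which the fitted size depends on few counts. Pck1 kept 99.58% or more of the FPKM of Pck1 and Pck2 in every liver, although Pck2, the mitochondrial form, rose from 4.39 ± 1.11 CPM in WT to 15.1 ± 4.52 in SKO and 10.7 ± 2.77 in DKO (SD, n = 4; edgeR adjusted p = 3.2e-04 and 0.0166).

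On the glycolytic side, Pfkfb1 made up 49.0% to 56.2% of the FPKM of the 4 Pfkfb genes in WT livers. SKO livers had 34.3% to 49.1% and DKO livers 33.4% to 53.0%. Pfkfb2 had 38.5 ± 5.68 CPM in WT livers, 35.0 ± 19.9 CPM in SKO livers and 38.5 ± 12.2 CPM in DKO livers, and its log2 fold change was −0.12 in SKO and 0.01 in DKO (edgeR adjusted p = 0.788 and 0.974). Pklr gave 82.8% to 92.5% of the FPKM of Pklr and Pkm in WT livers, with 76.3% to 86.8% in SKO livers and 83.8% to 90.6% in DKO livers, so that all genotypes overlapped. Aldoa, the muscle aldolase, rose in SKO by 1.51 (log2, SE 0.17, edgeR adjusted p = 5.5e-05). Pfkl held 40.3% to 44.6% of the FPKM of the 3 phosphofructokinases in WT livers, while SKO livers spread from 35.7% to 54.7% and DKO livers from 42.2% to 53.2%.

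**Figure D4:**
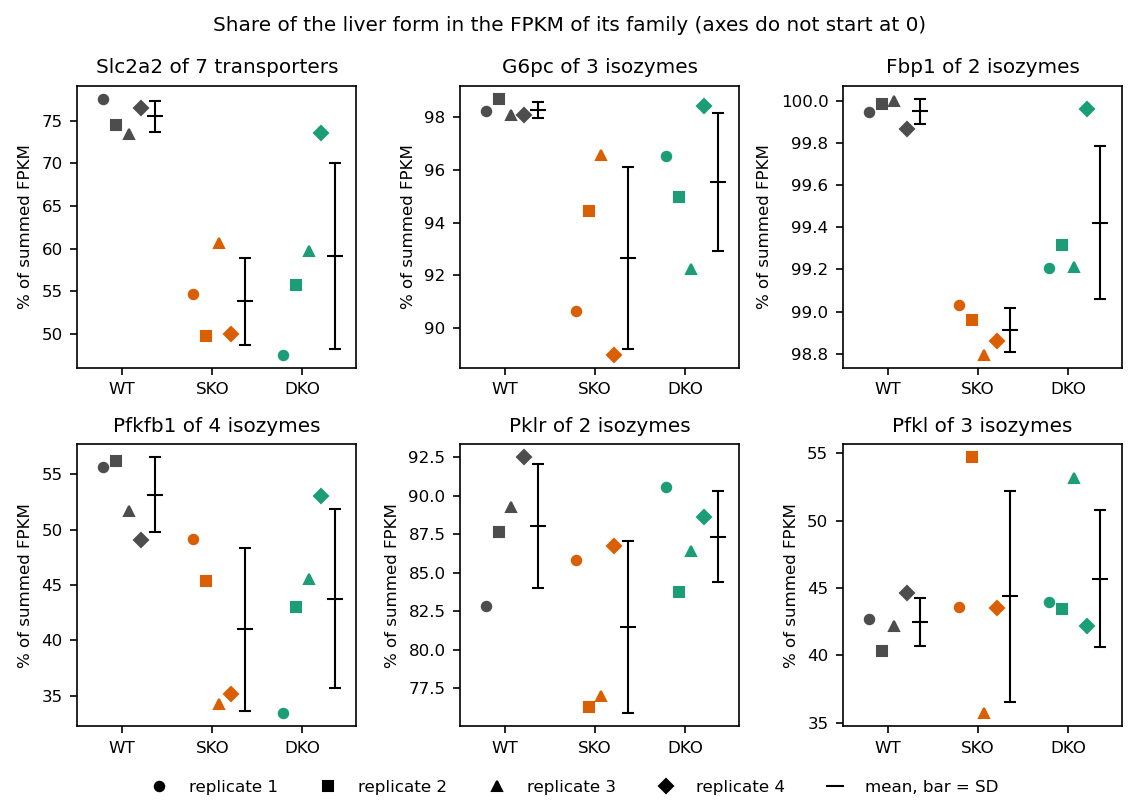
Share of the liver form in the summed FPKM of its gene family, in percent (axes do not start at 0), in the 12 livers with the mean ± SD of each genotype, for 6 of the 7 families. For Slc2a2, G6pc and Fbp1 the 4 SKO livers lie below the 4 WT livers, and DKO replicate 4 lies at the WT level.

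The balance of opposing enzymes was read as a ratio of FPKM in each liver, again with no test. Fbp1 against Pfkl gave 154, 163, 142 and 135 in WT replicates 1 to 4, 56.7, 44.3, 75.9 and 49.0 in SKO and 60.5, 58.4, 55.4 and 118 in DKO, so that the WT livers were above all KO livers. Pck1 against Pklr gave 107, 115, 118 and 71.5 in WT, 68.5, 98.3, 106 and 35.4 in SKO and 41.4, 73.4, 39.1 and 74.2 in DKO, with overlap between the genotypes.

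The wider pathway was read from 5 lists of genes that share no member with the 9, beside the share of all genes called in the same comparison, which was 32.1% in SKO, 10.5% in DKO and 35.9% in DKO without replicate 4. Among the enzymes and carriers that work beside the gluconeogenic members, more rose than fell. Of 18 partners tested, 10 rose and 4 fell in SKO, with a median log2 fold change of 0.53 against 0.03 for all genes, and as many rose and fell without SKO replicate 3 (median 0.49). Slc16a1, the lactate and pyruvate carrier of the cell membrane, rose from 40.5 ± 5.03 to 94.4 ± 17.1 CPM (edgeR adjusted p = 1.4e-04), and Gk, the glycerol kinase, from 197 ± 28.6 to 413 ± 39.4 CPM (edgeR adjusted p = 1.4e-04). Gpd2, the mitochondrial glycerol-3-phosphate dehydrogenase, rose from 41.0 ± 3.45 to 112 ± 37.7 CPM (edgeR adjusted p = 2.2e-04), while Gpt, the alanine aminotransferase, fell from 522 ± 65.0 to 256 ± 21.9 CPM (SD, n = 4; edgeR adjusted p = 1.8e-04). In DKO, 4 partners rose and 1 fell (median 0.25), with Slc16a1 higher by 1.27, Pck2 by 1.29 and Gpd2 by 0.88 and Gpd1, the cytosolic glycerol-3-phosphate dehydrogenase, at −1.11 (log2 fold changes). Without DKO replicate 4, 9 rose and 5 fell (median 0.35).

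Among 24 glycolytic and fructolytic enzymes, 3 rose and 4 fell in SKO (median 0.12), and 1 rose and 1 fell in DKO (median 0.0094 against 0.03 for all genes), or 4 and 5 without DKO replicate 4. Without SKO replicate 3, 5 rose and 5 fell in SKO. The 7 of 24 called in SKO, the 2 of 24 in DKO and the 9 of 24 without DKO replicate 4 are close to the 32.1%, 10.5% and 35.9% of all genes, and the 10 of 24 without SKO replicate 3 compare with 32.5%. The fructose enzymes Khk and Tkfc fell by 1.53 and fell by 1.33 in SKO, Aldoc fell by 1.12 and Aldoa rose, and in DKO Tkfc fell by 1.22 and Aldoa rose by 1.13 (log2). On the list of ChREBP, its partners and its glucose-responsive targets, 9 of 10 genes were lower in SKO and Txnip was higher, while 32.1% of all genes were called. The median was −1.25, or −1.15 with the same counts without SKO replicate 3. Khk and Tkfc are also counted among the glycolytic and fructolytic enzymes, and Gpd1 among the partners. Thrsp, a lipogenic target of ChREBP, went from 36.1 ± 9.81 to 2.48 ± 0.696 CPM (SD, n = 4; edgeR adjusted p = 2.6e-06), and Gckr, a regulatory protein of hepatic glucose phosphorylation, fell by 2.29 (log2, SE 0.17, edgeR adjusted p = 3.5e-06). Pklr, itself a known ChREBP target with the element shown above, did not pass the test. In DKO 4 of the 10 fell and 1 rose (median −0.73), namely Gpd1, Tkfc, Mlx and Slc2a5 lower and Txnip higher, and 9 fell and 1 rose without DKO replicate 4 (median −1.12).

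Of 22 regulators of gluconeogenesis, 2 rose and 5 fell in SKO (median −0.37), and 2 rose and 2 fell in DKO (median −0.24), or 3 and 9 without DKO replicate 4. Without SKO replicate 3, 2 rose and 7 fell in SKO. The 7 of 22 called in SKO is near the 32.1% of all genes, 9 of 22 without SKO replicate 3 compares with 32.5%, 4 of 22 in DKO compares with 10.5%, and 12 of 22 without DKO replicate 4 with 35.9%. Pdk4, the kinase that closes the entry of pyruvate into acetyl-CoA, rose from 5.73 to 12.6 CPM in WT to 515 to 926 CPM in SKO, and in DKO it was at 844, 1005, 758 and 71.0 CPM. Igfbp1, a secreted growth factor binding protein under insulin control, rose by 2.36 in SKO and 2.28 in DKO, and Nr0b2 (the corepressor Shp) and Klf15 fell by 4.94 and fell by 1.31 in SKO (log2). Foxa2 and Onecut1, transcription factors of the liver, changed in both KO genotypes. On the log2 scale Foxa2 fell by 0.73 in SKO and fell by 0.69 in DKO, and Onecut1 fell by 1.56 in SKO and fell by 1.92 in DKO. The call of Foxa2 in SKO was lost without SKO replicate 3 (log2 fold change −0.58, edgeR adjusted p = 0.0591). Of 6 other genes tested from the glucose transporter list, 2 fell and none rose in each KO genotype (medians −0.59 and −0.56). In SKO this is near the 32.1% of all genes called, and in DKO it compares with 10.5%. The genes that fell were the urate and fructose carriers Slc2a9 and Slc2a5 in SKO and Slc2a1 and Slc2a5 in DKO. Without DKO replicate 4, 3 of the 6 fell in DKO, beside 35.9% of all genes called, and without SKO replicate 3, 2 fell in SKO. All called genes named here had an edgeR adjusted p under 0.05.

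Between DKO and SKO no gene of the 5 lists passed the test with all livers, where 0.0209% of all genes did, and the medians were −0.08 for the glycolytic enzymes, −0.22 for the partners, 0.06 for the regulators, 0.50 for the ChREBP list and 0.09 for the transporters, against 0.0086 for all genes. Among the genes with the smallest p-values in each list were Eno1 (log2 difference −0.45), Gpt (0.56) and Mpc1 (−0.47), Nr0b2 (3.06) and Tcf7l2 (0.30), Gckr (1.77) and Thrsp (2.07), and Slc2a1 (−0.41) and Slc5a1 (0.57). Gckr was at 56.7, 34.3, 53.3 and 43.9 CPM in SKO and at 105, 99.9, 109 and 320 CPM in DKO, with no overlap, and had an edgeR adjusted p of 0.396.

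The differences of Nr0b2 and Thrsp rested in large part on DKO replicate 4, while Gckr was higher than in SKO in every DKO liver. Nr0b2 was at 0.112 to 3.78 CPM in SKO and at 0.194, 4.80, 4.23 and 26.6 CPM in DKO replicates 1 to 4, and Thrsp was at or under 3.06 CPM in SKO and at 3.73, 1.94, 4.90 and 30.5 CPM in DKO, so that replicate 4 was the highest DKO liver for all 3 genes. Without this liver the log2 differences from SKO were 1.48 for Nr0b2 (edgeR adjusted p = 0.87), 0.50 for Thrsp (edgeR adjusted p = 0.869) and 1.14 for Gckr (edgeR adjusted p = 0.0471), and Gckr was then the 1 gene of the lists to pass the test, where 0.103% of all genes did. The medians without this liver were −0.11 for the glycolytic enzymes, −0.33 for the partners, 0.03 for the regulators, 0.15 for the ChREBP list and −0.17 for the transporters. Without SKO replicate 3 no gene of the lists passed (edgeR), and the ChREBP list had a median of 0.33.

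**Figure D5:**
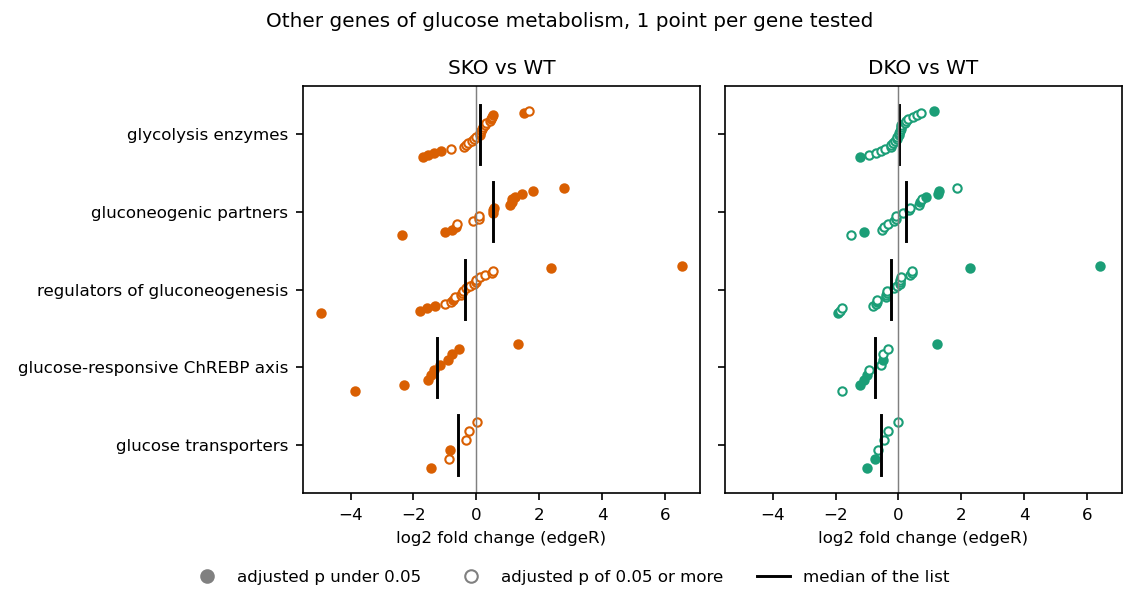
Log2 fold change (horizontal axis) of each tested gene of the 5 lists in SKO vs WT and DKO vs WT, filled where the edgeR adjusted p was under 0.05, with the list's median as a bar. In SKO the median of the partners lies to the right (0.53, with 10 genes called higher and 4 lower). That of the ChREBP list lies to the left (−1.25, with 9 called lower and 1 higher), and fewer points are filled in DKO.

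Patterns over the 12 livers were compared with those of 13078 other genes by Pearson's r of log2 CPM, as a description over livers that share 3 genotypes, so that any gene that differs between the genotypes resembles another. Among the genes most like Pck1 were Vgll4 (r = 0.968) and Necap1 (0.961). G6pc, more scattered in the KO livers, was matched less closely, by Crcp (r = 0.916), Wsb1 (0.913) and Fgfr4 (0.912). Pklr was nearest to L3hypdh (r = 0.894), St3gal1 (0.858) and Gm10804 (0.854), and Pfkfb3 to Zbtb44 (0.946) and Homer2 (0.940).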

How the data were processed

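Total RNA of flash-frozen liver was sequenced by the study. The authors deposited, for each of 12 livers, raw read counts per gene and FPKM values (counts scaled to gene length and library size). The submitters' processing notes name HISAT2 and GRCm38 (mm10); the counting tool and annotation are not given in the sources used here. The gene coordinates in the table are not those of GRCm38, so positions were taken from GENCODE vM21 by gene ID and promoters from RefSeq GRCm38.p6. The deposited fold changes and p-values of the authors' own comparisons were not used.

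Counts were tested for each pair of genotypes with edgeR 4.0.16 (R 4.3.3; TMM normalization, default filter on low counts, quasi-likelihood test, Benjamini-Hochberg adjustment over all genes tested, threshold 0.05) on the 8 livers compared, and the script was checked on simulated counts. CPM used TMM factors over 12 livers, and per-liver differences log2 (CPM + 0.5). The alternatives were DESeq2 1.42.0, RLE normalization, no filter, all 12 livers in one fit, a replicate block, only livers with Y-linked counts, and leaving out each liver. No pair of livers was a copy of another. The 9 genes and the gene lists were chosen with earlier results of these data known. The genes named besides the 9 were Cpt2, Atf3, Xist and the Y-linked genes, the isozymes of the shares, the 4 genes of each list with the smallest p among those called (or 2 where none was), and the 3 most alike in pattern to Pck1, G6pc, Pklr and Pfkfb3 among genes of mean CPM at least 1. A few of the genes this rule names, and the values that need them, are not reported here.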

Additional observations from a re-analysis of the deposited data

Results flagged for a closer look

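Among 54 groups of 4 values (levels, shares and ratios by genotype), 7 had 1 liver standing apart from the other 3 by Dixon's test. If the groups were independent, chance alone would give about 2.7 (1 in 20). They share livers and genes, as with the level, share and ratio of Fbp1, so an excess over chance cannot be read from these counts. Of the 7, 5 were in DKO replicate 4. Fbp1 was at 1036 CPM there against 343 to 408 in the other DKO livers, Slc2a2 at 365 CPM against 84.6 to 130 and Pfkfb1 at 37.0 CPM against 14.8 to 17.2. The share of Fbp1 in the FPKM of Fbp1 and Fbp2 was 99.96% in that liver against 99.21% to 99.31%, and its log2 ratio of Fbp1 to Pfkl was 6.88 against 5.79 to 5.92. In WT replicate 3 the share of Pck1 in the FPKM of Pck1 and Pck2 was 99.966% against 99.973% to 99.974% in the other WT livers. In DKO replicate 3 Pfkl made up 53.2% of the phosphofructokinase FPKM against 42.2% to 44.0%.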

How the results depend on the processing

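In SKO against WT, 6 of the 9 genes (all that fell except Pfkfb3) were called under each of 14 alternatives, and 6 to 8 of the 9 when 1 liver was left out. In DKO against WT, Slc37a4 was called under all 14. The number of the 9 called there was 6 with DESeq2, 6 without the filter on low counts, 5 with all 12 livers in one fit, 7 with only livers with Y-linked counts, and 1 to 7 leaving out 1 liver, with 7 only without DKO replicate 4. The number of genes called in DKO against WT was 2508 with DESeq2, 1680 without the filter, 1729 with all 12 livers in one fit, 5253 with only livers with Y-linked counts (which leaves out DKO replicate 4 alone) and 244 to 5253 leaving out 1 liver. In DKO against SKO it was 91 with DESeq2, 35 without the filter, 21 with only livers with Y-linked counts and 0 to 15 leaving out 1 liver, and none of the 9 was called under any alternative. The cause was not tested.

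Signs turned only in DKO against SKO, where no value was called. With only livers with Y-linked counts Fbp1 was at −0.0071, Pcx at 0.15 and Slc2a2 at −0.0394. Leaving out 1 liver gave −0.0076 to 0.44 for Pck1, −0.0409 to 0.67 for Fbp1, −0.21 to 0.0939 for Pcx, −0.0203 to 0.62 for Pfkfb1, −0.73 to 0.30 for Pfkfb3, −0.0557 to 0.18 for Slc37a4 and −0.18 to 0.73 for Slc2a2.

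Replicate numbers are shared across genotypes, but the deviations of same-numbered livers correlated at −0.365 to 0.112 and no label pairs them, so they share only a number. With the replicate block 4111, 691 and 0 genes were called in SKO against WT, DKO against WT and DKO against SKO, and 7, 2 and 0 of the 9, which added Slc2a2 in DKO against WT. Pfkfb3 had the fewest counts of the 9, 83 in DKO replicate 2.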
